A study of Mus musculus with 6 samples.

Results

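*Cxcl1*, *Il1r1*, *Socs3*, *Junb* and *Bcl3* are genes of cytokine signalling and of the early transcriptional response to it in liver. They are 5 of the 257 genes with counts in liver RNA-seq of mice that overexpressed *Zrsr1* in hepatocytes. All 5 were chosen by their higher counts in these same mice, together with their known place in cytokine signalling, so their values are a description and carry no test. All 5 were higher in TBG-*Zrsr1* than in TBG-Vec mice, by 1.78-fold in *Bcl3* to 9.33-fold in *Cxcl1*, and the 2 groups overlapped in none of them, as in 255 of all 257 genes.

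The study compared wild-type C57BL/6J mice that had received an AAV (adeno-associated virus) by tail vein injection, carrying either *Zrsr1* (TBG-*Zrsr1*, 3 mice) or no insert of that gene (TBG-Vec, 3 mice). *Zrsr1* encodes a splicing factor of minor introns. The TBG promoter is active in hepatocytes, so other liver cells were not meant to carry the transgene, while the RNA came from whole liver. All 6 mice received HFD, a diet high in fat, over 13 weeks. Their age at injection is not given in the sources used here, and the control libraries carry GFP in their names.

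In liver, interleukin-6 binds its receptor on hepatocytes and activates the transcription factor STAT3, which switches on acute-phase genes and its own inhibitor, *Socs3*. Interleukin-1 acts through the receptor encoded by *Il1r1* and activates NF-κB, which switches on chemokine genes such as *Cxcl1*. Early-response genes such as *Junb* are transcribed soon after either kind of signal without new protein being made first.

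The values are whole-number counts of reads per gene. Counts summed over the listed genes were 264103, 283414 and 281277 in TBG-Vec mice 1, 2 and 3 and 231429, 174448 and 227278 in TBG-*Zrsr1* mice 1, 2 and 3. These sums cover a list selected on this comparison, and the sequencing depth behind each library is unknown. Genes that differ little between the groups are nearly absent from the list. Counts were therefore compared without rescaling between libraries. A gene was called where edgeR's quasi-likelihood test gave a Benjamini-Hochberg adjusted p under 0.05 and the fold change was above 1.5.

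*Zrsr1* itself was counted 194, 197 and 202 times in TBG-Vec mice 1, 2 and 3 and 4383, 4479 and 4405 times in TBG-*Zrsr1* mice 1, 2 and 3. The log2 fold change was 4.48 with a standard error of 0.18. Every library held the *Zrsr1* level that its label calls for. Hepatocyte identity could not be checked in the same way, because 0 of 10 hepatocyte markers have a row in the list.

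All 5 genes were called higher, where 48 of the 257 genes (18.7%) were called higher. In 65 of the 257 genes (25.3%), the 5 among them, even the lowest TBG-*Zrsr1* count exceeded the highest TBG-Vec count. Nothing is read from either share, since both the list and the 5 genes were selected on this contrast. The filter on low counts removed 0 genes.

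*Cxcl1* encodes a secreted chemokine that draws neutrophils. It was counted 67, 59 and 36 times in TBG-Vec mice 1, 2 and 3 and 499, 460 and 553 times in TBG-*Zrsr1* mice 1, 2 and 3. The TBG-Vec counts were all low, with mouse 3 lowest, and the lowest TBG-*Zrsr1* count was 6.87 times the highest TBG-Vec count. Group means were 54.0 ± 16.1 and 504 ± 46.7 counts (SD, n = 3 mice each), a log2 fold change of 3.22 with a standard error of 0.22. Without rescaling, only *Zrsr1* itself had a higher log2 fold change among the 257 genes; with each of 3 rescalings over the list *Mup9* was also higher, at 3.76 against 3.74 with TMM. Ranked by count within each mouse, *Cxcl1* stood at places 158, 178 and 215 of 257 in TBG-Vec mice and at places 46, 47 and 43 in TBG-*Zrsr1* mice. The RNA is of whole liver, so more cells of a type and more RNA per cell cannot be told apart for *Cxcl1* or for any other gene here.

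*Il1r1* encodes the signalling receptor for interleukin-1. It was counted 633, 367 and 343 times in TBG-Vec mice 1, 2 and 3 and 861, 1134 and 830 times in TBG-*Zrsr1* mice 1, 2 and 3. TBG-Vec mouse 1 stood well above the other TBG-Vec mice and came closest to the TBG-*Zrsr1* range, whose lowest count was 1.31 times that of mouse 1. The means were 448 ± 161 and 942 ± 167 counts (SD, n = 3 each), and the log2 fold change was 1.07 with a standard error of 0.24. With libraries scaled by TMM over the list it was 1.61.

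*Socs3* encodes the feedback inhibitor that binds the interleukin-6 receptor complex and its kinases. It was counted 59, 76 and 103 times in TBG-Vec mice 1, 2 and 3 and 274, 176 and 208 times in TBG-*Zrsr1* mice 1, 2 and 3. TBG-Vec mouse 3 was the highest of its group and TBG-*Zrsr1* mouse 2 the lowest of its own, and these nearest counts were still 1.71-fold apart. Means were 79.3 ± 22.2 and 219 ± 50.0 counts (SD, n = 3 each), with a log2 fold change of 1.47 and a standard error of 0.22.

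*Junb* encodes a subunit of the AP-1 transcription factor. Its counts were 193, 204 and 320 in TBG-Vec mice 1, 2 and 3 and 719, 571 and 633 in TBG-*Zrsr1* mice 1, 2 and 3. As in *Socs3*, TBG-Vec mouse 3 and TBG-*Zrsr1* mouse 2 were the nearest, here 1.78-fold apart. The means of 239 ± 70.4 and 641 ± 74.3 counts (SD, n = 3 each) gave a log2 fold change of 1.42 with a standard error of 0.21.

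*Bcl3* encodes a nuclear protein of the IκB family that binds NF-κB subunits and alters transcription from their sites. Its counts were 138, 169 and 269 in TBG-Vec mice 1, 2 and 3 and 364, 331 and 333 in TBG-*Zrsr1* mice 1, 2 and 3. TBG-Vec mouse 3 was the highest of its group, and the nearest TBG-*Zrsr1* count was 1.23 times its own. The means were 192 ± 68.5 and 343 ± 18.5 counts (SD, n = 3 each). The log2 fold change of 0.84, with a standard error of 0.22, was the lowest of the 5 genes, and it was 1.36 with TMM scaling.

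**Figure D1:**
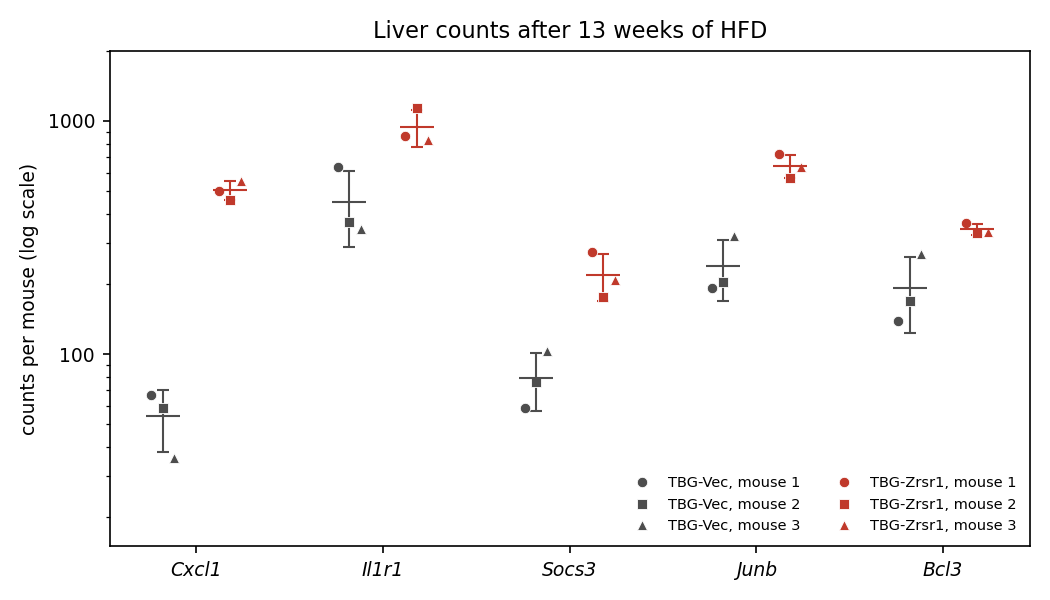
Counts of the 5 genes in each mouse on a logarithmic axis, in grey for TBG-Vec and in red for TBG-*Zrsr1*, with 1 symbol per mouse number; horizontal bars are means and error bars are SD (n = 3). In *Cxcl1* the groups stand 6.87-fold apart at their nearest points and in *Bcl3* 1.23-fold apart.

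The coefficient of variation (the SD as a percentage of the mean) of the counts was 28.0% to 36.0% over the 5 genes in TBG-Vec mice and 5.40% to 22.8% in TBG-*Zrsr1* mice. With each library scaled to the same sum over the list, an alternative chosen after seeing the data, the ranges were 25.5% to 40.3% and 8.12% to 35.1%. On both scales it was smaller in TBG-*Zrsr1* mice for all 5 genes. The same held for 43 of the 65 genes with higher means in TBG-*Zrsr1* mice (66.2%) by counts and for 31 of them (47.7%) with equal sums. Over all 257 genes it held for 108 (42%) by counts and for 104 (40.5%) with equal sums. The size of the spread depended on the scale, and that of *Bcl3* in TBG-*Zrsr1* mice was 5.40% by counts and 13.7% with equal sums. For *Cxcl1* in TBG-Vec mice, counting error comes to 13.6% of the mean, against a spread of 29.8% by counts.

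Some mice stood at the edge of their group in several genes, a pattern singled out after the values were seen. By counts, and also per 10000 listed counts, TBG-Vec mouse 3 was the highest of its group in *Socs3*, *Junb* and *Bcl3* and the lowest in *Cxcl1* and *Il1r1*. Among TBG-*Zrsr1* mice the order depended on the scale. By counts mouse 2 was lowest in *Cxcl1*, *Socs3*, *Junb* and *Bcl3* and highest in *Il1r1*. Its summed count over the list was also the lowest. Per 10000 listed counts, mouse 3 was the lowest in *Socs3*, with 11.8, 10.1 and 9.15 in TBG-*Zrsr1* mice 1, 2 and 3. It was the lowest in *Junb*, *Bcl3* and *Il1r1* as well, and mouse 2 was the lowest in none of the 5 genes. By counts, 66 of all 257 genes (25.7%) had the order of TBG-Vec mice seen in *Socs3*, *Junb* and *Bcl3*, these included. The order of TBG-*Zrsr1* mice in these genes was found in 89 of all 257 genes (34.6%).

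Ratios of counts within a mouse do not depend on scaling between libraries. *Socs3* stood at 0.306, 0.373 and 0.322 counts per *Junb* count in TBG-Vec mice 1, 2 and 3 and at 0.381, 0.308 and 0.329 in TBG-*Zrsr1* mice 1, 2 and 3. The 2 groups overlapped, and mean log2 ratios were −1.59 ± 0.15 with the vector and −1.57 ± 0.16 with *Zrsr1* (SD, n = 3 mice each). *Socs3* and *Junb* thus differed between the groups by nearly the same factor, and kept nearly the same ratio in each of the 6 mice.

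*Bcl3* did not move in step with them. There were 1.40, 1.21 and 1.19 *Junb* counts per *Bcl3* count in TBG-Vec mice 1, 2 and 3, and 1.98, 1.73 and 1.90 in TBG-*Zrsr1* mice 1, 2 and 3. These ranges did not overlap, with mean log2 ratios of 0.34 ± 0.13 and 0.90 ± 0.10 (SD, n = 3 each). Ratios of *Il1r1* to *Socs3*, *Junb* and *Bcl3* overlapped between the groups, and they varied widely among the TBG-Vec mice.

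*Cxcl1* departed from each of the other 4 genes. It stood at 0.347, 0.289 and 0.113 counts per *Junb* count in TBG-Vec mice 1, 2 and 3 and at 0.694, 0.806 and 0.874 in TBG-*Zrsr1* mice 1, 2 and 3. The groups did not overlap in this ratio or in the ratios of *Cxcl1* to *Socs3*, *Bcl3* and *Il1r1*. The differences in mean log2 ratio ran from 1.79 against *Socs3* to 2.37 against *Bcl3*. The SD of the *Cxcl1* to *Junb* log2 ratio was 0.87 among TBG-Vec mice and 0.17 among TBG-*Zrsr1* mice.

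**Figure D2:**
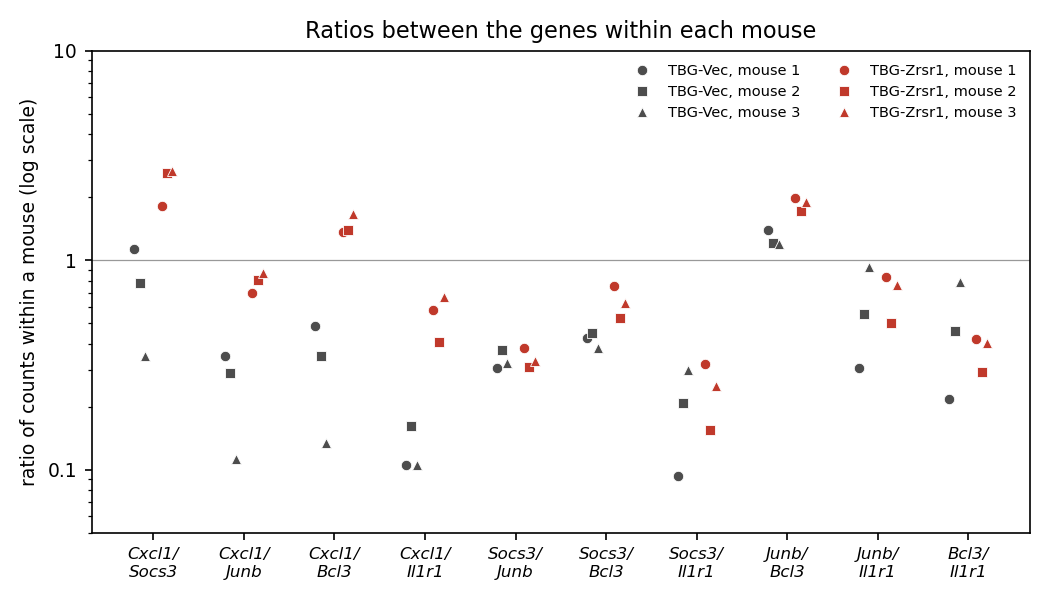
Ratio of the counts of each pair of genes within each mouse on a logarithmic axis, in grey for TBG-Vec and in red for TBG-*Zrsr1*, with 1 symbol per mouse number. The *Socs3* to *Junb* ratio lies between 0.306 and 0.381 in all 6 mice, and the groups stand apart in the 4 ratios with *Cxcl1* and in those of *Socs3* and *Junb* to *Bcl3*.

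Levels of different genes were compared as counts per kilobase of the canonical transcript. In TBG-Vec mice *Junb* had the highest level of the 5, 132 ± 38.9 counts per kilobase, ahead of *Bcl3* at 95.2 ± 33.9, *Il1r1* at 76.0 ± 27.3 and *Cxcl1* at 56.3 ± 16.8 (SD, n = 3 each). Each of these differed from its neighbour in the order by no more than the larger of their SDs. *Socs3* was lowest, at 29.8 ± 8.33 counts per kilobase. In TBG-*Zrsr1* mice *Cxcl1* came first, at 526 ± 48.7 counts per kilobase, and *Junb* followed at 354 ± 41.1. *Bcl3* at 170 ± 9.17 and *Il1r1* at 160 ± 28.4 counts per kilobase did not differ beyond their spread, and *Socs3* was again lowest at 82.4 ± 18.8 (SD, n = 3 each).

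The genes nearest to each of the 5 were found by the root mean square difference, over the 6 mice, of log2(count + 1) after subtracting each gene's TBG-Vec mean. *Socs3* and *Junb* were each other's nearest gene among the 257, at 0.12. For *Il1r1* the nearest were the serum amyloid gene *Saa4* at 0.24, the metalloreductase gene *Steap4* at 0.24 and *Saa2* at 0.27. Among the genes nearest to *Bcl3* were *Fam222a* at 0.18 and *Psd* at 0.26. Both had low counts, and counting error at the TBG-Vec mean was 24.3% for *Fam222a* and 22.7% for *Psd*. The nearest to *Cxcl1* were *Mup9* at 0.69, *Commd1* at 0.70 and *Cfd* at 0.83, so no gene of the list followed it as closely as the others were followed. *Commd1* overlaps the *Zrsr1* locus, and without a stated strand setting its reads cannot be told apart from those of the transgene. *Mup9* belongs to a family of near-identical genes, as do *Saa1* and *Saa2*, and how the counting divided shared reads is not given in the sources used here. The remaining near genes were *Adgrv1* at 0.36 and *Saa1* at 0.44 for *Socs3*, and *Bcl3* at 0.41 and *Saa1* at 0.41 for *Junb*.

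Most genes of the pathways have no row in the list and were not analysed here. By qPCR of livers on HFD, the paper reports no significant change of inflammation genes with *Zrsr1* overexpression. The primers it lists cover none of the 5 genes. It also reports that phosphorylation of an NF-κB subunit was unaltered in these livers. Of 39 genes of interleukin-6 family and STAT signalling, 1 has a row (*Socs3*), and of 40 chemokines and their receptors also 1 (*Cxcl1*). Of 50 genes of interleukin-1, TNF and NF-κB signalling, 3 have a row (*Il1r1*, *Bcl3* and *Map3k8*), and of 37 AP-1 and immediate-early genes 2 do (*Junb* and *Fosl2*). The pathway lists are not complete. Related genes such as *Tifa*, *Map3k5*, *Map3k6*, *Tlr12* and *Tnfrsf19* have rows but are on none of them and were not followed. Of the 7 listed genes 6 were called higher and 0 lower, where 18.7% of all 257 genes were called higher. However, 5 of the 7 are the genes chosen for being higher. Without them 2 genes are left, of which 1 was called higher, with a median log2 fold change of 0.64 beside −0.54 over all 257 genes. Nothing is read from these counts, since every row was selected on this contrast.

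The remaining pair had smaller differences. *Map3k8*, which encodes a kinase that relays inflammatory signals to ERK, was counted 12, 25 and 24 times in TBG-Vec mice 1, 2 and 3 and 39, 29 and 38 times in TBG-*Zrsr1* mice 1, 2 and 3. The groups did not overlap, but counting error is 22.2% at the TBG-Vec mean, and the log2 fold change was 0.79 with a standard error of 0.25. Without TBG-Vec mouse 1, the lowest, it was 0.53 and no longer called. *Fosl2*, which encodes another AP-1 subunit, was counted 115, 136 and 157 times in TBG-Vec mice 1, 2 and 3 and 188, 174 and 213 times in TBG-*Zrsr1* mice 1, 2 and 3. Its groups did not overlap either, and its log2 fold change of 0.49 with a standard error of 0.17 was below the 1.5-fold threshold. It was called with each of 3 rescalings, at 1.02 with TMM, 0.97 with DESeq2 size factors and 0.89 with equal totals.

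Acute-phase genes, which hepatocytes transcribe in response to interleukin-6 and interleukin-1, have 5 rows from a list of 37, and 5 of 5 were called higher with a median log2 fold change of 1.01, where 18.7% of all 257 genes were called higher. These rows too were selected on this contrast. *Saa1* was counted 593, 504 and 495 times in TBG-Vec mice 1, 2 and 3 and 1852, 1847 and 1034 times in TBG-*Zrsr1* mice 1, 2 and 3. TBG-*Zrsr1* mouse 3 was the lowest of its group in *Saa1*, and by counts also in *Saa2*, *Steap4* and *Mt2*. Their log2 fold changes were 1.57 for *Saa1*, 1.01 for *Saa2*, 0.81 for *Saa4*, 0.99 for *Steap4* and 1.68 for *Mt2*.

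Markers of other cell types were scarce in the list. Of 12 stellate cell and fibroblast markers 2 have a row, *Col3a1* and *Col1a1*, and both were called lower. Of all 257 genes, 108 were called lower and 48 higher without rescaling. Summed, the 2 collagen genes came to 441, 550 and 659 counts in TBG-Vec mice 1, 2 and 3 and to 356, 204 and 244 counts in TBG-*Zrsr1* mice 1, 2 and 3. Most of these counts were from *Col3a1*, which was not called with any of 3 rescalings. *Col1a1* was called lower with each of the 3. Of 9 adipocyte markers 1 has a row, *Cfd*, which was called higher with 375, 607 and 100 counts in TBG-Vec mice 1, 2 and 3 and 2397, 1024 and 1626 in TBG-*Zrsr1* mice 1, 2 and 3. Of the 10 neutrophil, 15 Kupffer cell and macrophage, 12 lymphocyte, 10 endothelial, 7 cholangiocyte and 6 erythroid markers, 0 have a row. The part of any change in cell composition in the counts of the 5 genes was not tested.

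Promoter sequences are shown because all 5 genes were higher in the same mice and the pathways act through known DNA motifs. RefSeq windows on GRCm38.p6, each of 300 bases with 250 before the start of transcription, were matched for 5 of 5 genes, with 2 windows for *Il1r1*. Both strands were searched for the STAT motif TTCNNNGAA, the AP-1 motif TGANTCA, the TATA motif TATAAA and the consensus of NF-κB. No motif overlapped another kind. The STAT motif was found in *Socs3* alone of the 5 genes, against 8.30% of all 32851 windows, and the NF-κB consensus in *Cxcl1*, *Bcl3* and *Il1r1*, against 8.46%. The TATA motif was found in *Junb* alone, against 13.6% of all windows, and the AP-1 motif in 0 of 5, against 7.81%. These shares are of single windows, while *Il1r1* had 2 windows and was counted if either held a match. A match is a description of letters in a window, and binding was not measured.

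In the lines that follow, capitals mark the matches, and sequences run 5′ to 3′ on the strand of the gene. Stretches that lie even in part in annotated transcripts, or that reach the start of transcription, are kept short. The *Cxcl1* stretch is at chr5:90891149-90891209 on the plus strand, with its match starting 71 bases before the start of transcription as a pair of overlapping NF-κB matches on opposite strands. The *Il1r1* stretch, from the second of its windows, is at chr1:40266336-40266388 on the plus strand, with its NF-κB match 232 bases before the start. The *Socs3* stretch is at chr11:117969502-117969530 on the minus strand, with its STAT match 154 bases before the start. At least part of this match with its flanking bases was found in a GENCODE M39 transcript. The *Junb* stretch, chr8:84978731-84978760 on the minus strand, has its TATA match at base 1 of the RefSeq transcript, and the stretch was not found in a GENCODE M39 transcript of the gene. The *Bcl3* stretch, chr7:19822734-19822763 on the minus strand, has its NF-κB match at base 3 of the RefSeq transcript.
*Cxcl1*: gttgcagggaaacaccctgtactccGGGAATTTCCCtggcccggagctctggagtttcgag
*Il1r1*: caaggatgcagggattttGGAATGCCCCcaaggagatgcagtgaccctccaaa
*Socs3*: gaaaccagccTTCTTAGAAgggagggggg
*Junb*: tgacaaattcagTATAAAagcttggggctg
*Bcl3*: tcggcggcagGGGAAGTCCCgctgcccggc

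*Socs3* and *Junb* shared none of the 4 motifs in these windows. *Cxcl1*, *Il1r1* and *Bcl3* hold the NF-κB consensus, in *Bcl3* only after the start of transcription. Any part of these motifs in the differences between the groups was not tested. The windows of *Socs3*, *Bcl3* and *Junb* were rich in G and C, at 71.6%, 67.6% and 66.4% of the 250 bases before the start, beside a median of 52.4% over all windows. That share was 59.2% in *Cxcl1* and 48.4% and 60.4% in the 2 windows of *Il1r1*.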

How the data were processed

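Liver RNA was enriched for poly(A) RNA and sequenced from 3 TBG-Vec and 3 TBG-*Zrsr1* mice, which the sample labels name as separate animals. The authors deposited whole-number counts per gene for 257 genes. The paper's methods name HISAT2, GRCm39 and HTSeq, while the submitters' processing notes name Bowtie2, RSEM 1.3.1, DESeq2 1.4.5 and mm10, so how the counts were made is uncertain (RSEM would give estimated counts, rounded). The annotation, the strand setting and any scaling between libraries are not given in the sources used here. Columns of the authors' own comparison (the mean over the mice, a fold change and an unadjusted p-value) were not used.

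Counts were fitted with edgeR 4.0.16 in R 4.3.3 (quasi-likelihood test, all 257 genes, equal library sizes, filterByExpr, Benjamini-Hochberg adjustment), and the fit was tested on simulated data. The simulated spread was smaller than that of the 5 genes in TBG-Vec mice, so this checks the code only. Standard errors were derived from the F statistic, as the size of the log2 fold change over √F. Alternatives were TMM, DESeq2 size factors, equal totals, DESeq2 1.42.0, limma 3.58.1 on log2(count + 1), other filters and thresholds, a replicate block, each mouse left out, and a shorter promoter window. Transcript lengths are of GENCODE M39 canonical transcripts. Replicate libraries of a group differed by more than counting noise in chi-square comparisons, so each was kept.

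The 5 genes and the gene lists were chosen with earlier results of these data known. Named genes are the 5, *Zrsr1*, the list and marker genes with a row, and the 3 nearest genes to each of the 5, of which 1 is not reported here.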

Additional observations from a re-analysis of the deposited data

How the results depend on the processing

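The 5 genes kept their direction and their call under all 15 alternative fits each, 75 of 75 values. Leaving out 1 mouse at a time gave log2 fold changes from 3.00 to 3.40 for *Cxcl1*, 0.91 to 1.41 for *Il1r1*, 1.27 to 1.70 for *Socs3*, 1.29 to 1.69 for *Junb* and 0.65 to 1.16 for *Bcl3*. Directions were fixed by the choice of the genes, so this is no sign of stability. Rescaling over the list moved the median log2 fold change of all genes by 0.52 with TMM, 0.47 with DESeq2 size factors and 0.39 with equal totals, and the 5 genes moved with it. Calls over the list were 48 higher and 108 lower without rescaling, 65 and 10 with TMM, 65 and 13 with DESeq2 size factors, 65 and 17 with equal totals and 65 and 12 with DESeq2 and its size factors. DESeq2 without scaling gave 48 and 108, as edgeR did. With each of the 4 rescaled fits 7 of the 7 signalling list genes were called higher, against 6 without rescaling, 5 to 7 with 1 mouse left out, 5 with a mean of at least 100 counts, which drops *Map3k8*, and 4 with a fold change above 2. Following *Map3k8* and *Fosl2* singly through the alternatives was chosen after seeing the data. Without TBG-*Zrsr1* mouse 2 there were 67 lower calls. With a fold change above 2, 4 of the 5 genes were called, *Bcl3* being the exception. At that threshold 15 genes of the whole list were called higher and 19 lower, against 48 and 108 at the 1.5-fold threshold. The TATA match of *Junb* lies after the RefSeq start, so 0 genes had it in the 250 bases before the start, and the NF-κB consensus was found there in 2 genes in place of 3, without *Bcl3*.

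Mice that share a number are different animals. With the number as a replicate block, log2 fold changes were 3.24 for *Cxcl1*, 1.11 for *Il1r1*, 1.47 for *Socs3*, 1.45 for *Junb*, 0.89 for *Bcl3* and 4.48 for *Zrsr1*, and 49 genes were called higher and 107 lower. Deviations of same-numbered mice correlated between −0.11 and 0.05 over the genes, and 1 of 3 TBG-Vec mice was closest to its own number.

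Precision is limited by 3 mice per group and by counts under 100 for *Cxcl1* and for most *Socs3* values in TBG-Vec mice. Adjusted p-values cover 257 selected genes.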
